A study of Mus musculus with 36 samples.

Results

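Actin, SRF and YAP target genes are described here in mouse embryonic fibroblasts of 3 Tbk1 genotypes. The 32 genes are 21 contractile and actin genes and 11 YAP/TEAD genes, of which 8 are targets and 3 are the factors Yap1, Wwtr1 and Tead1. They were found by symbol among the 49585 genes of each deposited table. All 32 were present and protein-coding, with Cyr61 also known as Ccn1 and Ctgf as Ccn2. The lines carry 0, 1 or 2 copies of the knock-in allele N129D of Tbk1, a kinase of innate immune signalling and selective autophagy. Lines E1.5, E2.1, then E2.7 are wild-type (WT). Lines E1.3, E2.5, then E2.6 with E2.8 are heterozygous (het). Lines E1.4, E2.2, then E2.9 are homozygous (hom), and all were cultured in DMEM. Every line gave 1 untreated library, 1 after 4 h with poly(I:C), which mimics viral double-stranded RNA, and 1 after 4 h with antimycin plus oligomycin (AO), inhibitors of the respiratory chain and of ATP synthase. Density was varied in WT line E1.5 alone, which gave 6 more libraries, with a single one for each treatment at high and at low density. The labels name the lines as separate but say no more of their origin. For treatments and genotypes, p-values measure the spread between these lines, or between their responses where the line is added to the model. Those for density come from line E1.5 alone and measure no spread between lines. The sources used here give no strain, passage or cell number for the density labels. Gene counts cannot show a change of 1 residue, so the genotypes rest on the labels. The question for these genes is how contractile and actin genes and YAP/TEAD targets move with each treatment, the genotype and the density.

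SRF is a transcription factor with a pair of partner families. With MRTF coactivators, which monomeric actin holds inactive, it drives genes of the actin cytoskeleton, and with ternary complex factors it drives immediate early genes. YAP and TAZ (the product of Wwtr1) are coactivators that bind TEAD factors at their target genes. The Hippo kinases LATS1 and LATS2 phosphorylate YAP and TAZ and keep them in the cytoplasm, more so in crowded cultures or in cells with little actin tension. In fibroblasts both programmes are known for their response to stretch, adhesion and cell density, and several of the genes mark the contractile cells called myofibroblasts.

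The sequences of the binding motifs are shown for members that the results below turn on. They come from the RefSeq promoter table of build GRCm38.p6, which gives 250 bases before to 50 bases after each start site. That table held a window for 17 of the 21 contractile genes and 9 of the 11 YAP/TEAD genes. Actb, Actg2, Tagln, Myh11, Ctgf and Tead1 had no window in it. SRF binds the CArG box, searched here as CCWWWWWWGG, where W is A or T. The capitals in the first 5 stretches mark each match to it. TEAD factors bind CATTCC, or GGAATG on the other strand, and the capitals in the last 5 stretches, and at the end of that of Vcl, mark each match to these letters. Each stretch lies upstream of the start site and reads 5′ to 3′ on the strand of the gene.
Srf (chr17:46556203-46556262, minus strand): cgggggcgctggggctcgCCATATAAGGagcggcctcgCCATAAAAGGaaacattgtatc
Actg1 (chr11:120348551-120348610, minus strand): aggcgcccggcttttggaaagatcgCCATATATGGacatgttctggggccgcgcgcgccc
Cnn2 (chr10:79988519-79988578, plus strand): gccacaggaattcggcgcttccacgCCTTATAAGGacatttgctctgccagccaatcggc
Myl9 (chr2:156775278-156775337, plus strand): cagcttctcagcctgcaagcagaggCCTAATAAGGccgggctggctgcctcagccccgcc
Vcl (chr14:20929158-20929267, plus strand): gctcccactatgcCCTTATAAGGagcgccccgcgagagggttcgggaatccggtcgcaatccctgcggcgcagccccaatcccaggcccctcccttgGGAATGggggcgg
Cyr61 (chr3:145650056-145650115, minus strand): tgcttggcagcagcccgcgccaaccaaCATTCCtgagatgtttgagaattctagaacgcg
Amotl2 (chr9:102717712-102717771, plus strand): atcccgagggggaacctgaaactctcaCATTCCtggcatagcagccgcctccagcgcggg
Ankrd1 (chr19:36119952-36120066, minus strand): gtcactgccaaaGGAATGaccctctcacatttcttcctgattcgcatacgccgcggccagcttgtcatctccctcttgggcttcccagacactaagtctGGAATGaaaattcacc
Wwtr1 (chr3:57576014-57576073, minus strand): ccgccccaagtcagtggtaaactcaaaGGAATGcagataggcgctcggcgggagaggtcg
Ajuba (chr14:54577804-54577863, minus strand): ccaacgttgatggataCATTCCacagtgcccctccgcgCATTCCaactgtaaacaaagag

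The CArG box was found in 5 of 17 contractile genes with a window (29.4%), in 0 of 9 YAP/TEAD genes and in 1.63% of all 32851 windows. Srf itself held 2 copies, at -82 to -73 and -62 to -53 from its start site. The TEAD motif was found in 8 of 9 YAP/TEAD genes (88.9%), with Amotl1 the exception, in 6 of 17 contractile genes (35.3%) and in 14.7% of all windows. The contractile genes with it were Acta2, Tagln2, Tpm1, Lmod1, Vcl and Flna. Vcl was the single member whose window held both motifs. Ankrd1 and Ajuba each held 2 TEAD motifs. Both strands were searched and the motifs do not overlap each other. A match describes letters in this window and is not a measured binding site. Looser forms of the motifs and sites outside the window were not searched, so a gene without a match may still hold a site. A search for the AP-1 motif (TGAGTCA or TGACTCA) found 1 match among the members, in Zyx, against 5.2% of all windows.

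The 30 libraries with no density label held 3689144 to 14879227 counts each, those at high density 16474011 to 22756870 and those at low density 5391393 to 6307963. Of 10 fibroblast markers none was at 0 in every library of a group, and their summed level was 10900 to 13800 CPM in untreated cells, 13800 to 18900 CPM under poly(I:C) and 8590 to 12700 CPM under AO. CPM is the usual scaling of counts to library size, here with TMM adjustment. Dcn and Lum were low, at medians of 13.4 and 0.585 CPM. Hom line E1.4 stood apart in transcript length: relative to the median over lines, the quartile of genes with the longest transcripts differed from that with the shortest by -0.68 on the log2 scale in the untreated and -1.17 in the AO library, against 0.05 in its poly(I:C) library and -0.08 to 0.16 in the 27 libraries of other lines. Het line E2.6 was highest untreated in several marker sums. In it 8 further smooth muscle markers summed to 100 CPM, against 50.4 to 77.4 CPM in the other lines. Chondrocyte markers summed to 220 CPM in it against 54.8 to 158 CPM, and pericyte markers to 105 CPM against 42.7 to 75.5 CPM. Endothelial markers summed to 21.5 CPM against 4.03 to 11.9 CPM. Acta1, the skeletal muscle actin, stood at 13.9 CPM against 0 to 1.85 CPM, but no other skeletal muscle marker was highest in that line. Macrophage markers summed to 204 CPM in untreated hom line E2.9 and 43.6 CPM in het line E2.6, against 0.635 to 4.87 CPM elsewhere. Their part in the results below was not tested, and counts without lines E1.4 and E2.6, and without E2.9, are given with the treatment comparisons over all lines.

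Before treatment, the actin cytoskeleton genes were among the high transcripts of these cells. The smooth muscle genes of the same list ranged from Acta2, which was also high, to Myh11, which was near the floor. Levels are compared between genes per kilobase of exon, as the median over the 10 untreated lines. Actg1, the cytoplasmic gamma actin, stood at 1315 CPM per kilobase and Actb, the cytoplasmic beta actin, at 871. Acta2, the smooth muscle alpha actin that marks myofibroblasts, stood at 622, Tpm4, a tropomyosin, at 588, and Tagln, the actin-binding transgelin, at 504. At the other end were Lmod1, the actin nucleator leiomodin, at 1.96, the muscle intermediate filament gene Des at 0.606 and the smooth muscle myosin heavy chain Myh11 at 0.0496. Among the YAP/TEAD genes the secreted matricellular proteins led, with Ctgf at 235.5 and Cyr61 at 215 CPM per kilobase, which does not set them apart given the spread over lines. Axl, a receptor tyrosine kinase, followed at 126. Wwtr1 stood at 38.4, Tead1 at 27.3 and Yap1 at 21.6, and the LATS kinase gene Lats2 closed the list at 13.85. Reads with several matches are split by RSEM between genes: 37.4% of the 50-base windows of Actg1 and 9.12% of those of Actb also occur in other genes, mostly actin pseudogenes and each other, as do 41.2% of those of Lats2 and 11.7% of those of Tpm4. The counts of those 4 genes are therefore less certain.

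The lines differed far more in some members than in others. The SD over the 10 untreated lines, on the log2 scale of CPM + 0.5, was 0.10 for Wwtr1, 0.12 for Ajuba, 0.12 for Tpm4 and 0.12 for Yap1. It was 1.0 for Actg2, the smooth muscle gamma actin, 1.05 for Lmod1, 1.13 for Ankrd1, 1.46 for Myh11 and 1.60 for Des. The median of the SD was 0.26 over the 21 contractile genes and 0.27 over the 11 YAP/TEAD genes. Line E2.6 was highest in 17 of 32 members and line E1.4 in 12. Line E1.4 was also lowest in 6, among them the long transcripts of Vcl, Flna, Amotl1 and Tead1. The share over all genes was not counted, so these counts are not shown to be particular to the members. Over protein-coding genes both untreated libraries deviated most from the median of the lines. The median absolute log2 deviation was 0.329 in E1.4 and 0.204 in E2.6, against 0.09 to 0.13 in the other lines. Gene positions are those of GENCODE vM21 on GRCm38 (mm10). Values are given below with the lines of each genotype in the order in which they were first named: E1.5, E2.1, E2.7 for WT; E1.3, E2.5, E2.6, E2.8 for het; E1.4, E2.2, E2.9 for hom.

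**Figure D1:**
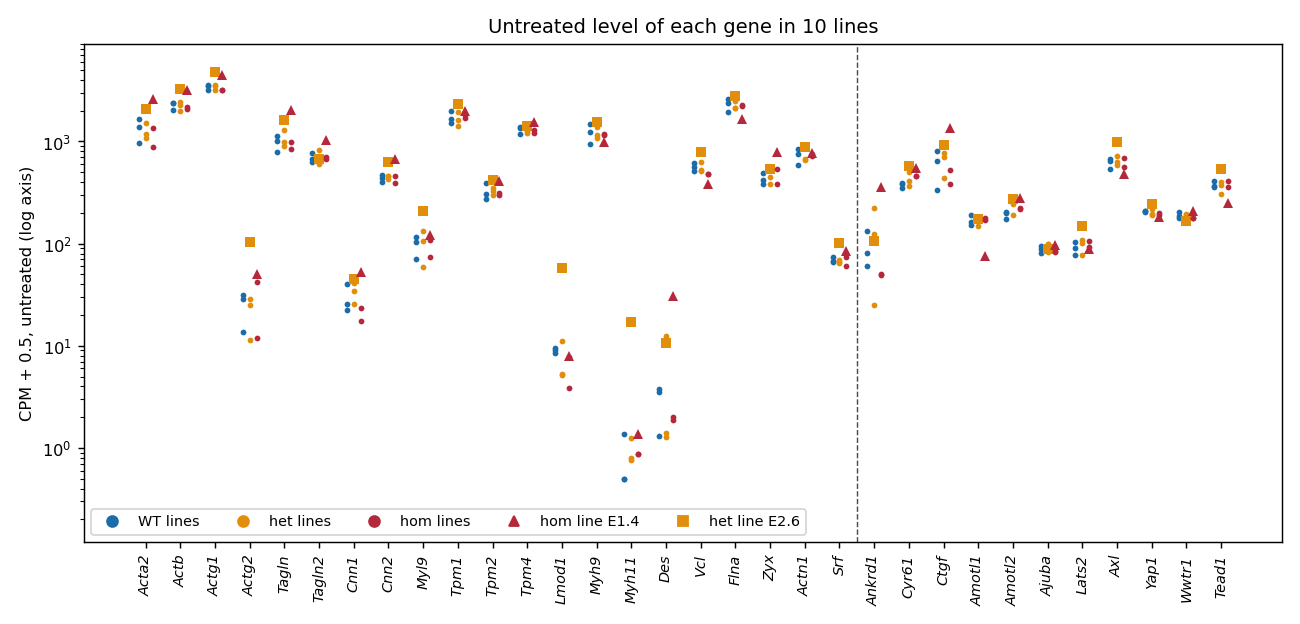
Untreated level of each of the 32 genes (CPM + 0.5, log axis) in 10 lines, 1 point per line, coloured by genotype; the dashed line separates the 21 contractile and actin genes from the 11 YAP/TEAD genes. Line E2.6 (squares) stands above the other lines in Lmod1 and Myh11, and line E1.4 (triangles) is highest in Acta2, Tagln, Des, Ankrd1 and Ctgf.

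Ankrd1, an ankyrin repeat protein of nucleus and sarcomere and a common YAP reporter, showed the widest range of the YAP/TEAD genes. Ankrd1 (chr19:36111961-36120099, minus strand) stood at 132, 80.05 and 59.3 CPM in WT lines, 124, 224, 105 and 24.7 in het lines and 356.5, 49.1 and 49.7 in hom lines. The highest line, E1.4, was 14.4 times the lowest, E2.8, and both hom and het lines lay on either side of the WT lines. Ctgf (chr10:24595442-24598683, plus strand) stood at 807, 639 and 337.5 CPM in WT lines, 765, 709, 915 and 438 in het lines and 1341, 382 and 519 in hom lines. Its range was 3.97-fold, with lines E1.4 and E2.6 at the top and WT line E2.7 at the bottom. Des read 0.7895 to 30.2 CPM (median 2.28) and Myh11 0 to 16.6 CPM (median 0.377) in untreated lines, with the top value of Des in E1.4 and that of Myh11 in E2.6. In bulk RNA a line with more cells of a contractile type and a line with more of the transcript per cell cannot be told apart.

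Under AO, contractile genes such as Actb and Vcl fell and YAP/TEAD genes such as Cyr61 and Wwtr1 rose. Of the 21 contractile genes 9 fell and 0 rose in edgeR's quasi-likelihood test at an adjusted p under 0.05, and 20 had a negative log2 fold change. Of the 11 YAP/TEAD genes 4 rose and 1 fell. The 14 calls of 32 members compare with 33.7% of all 13364 genes tested, 17% higher and 16.7% lower. The median log2 fold change was -0.33 for the contractile genes, 0.18 for the YAP/TEAD genes and -0.02 for all genes. Within single lines the median of the contractile genes ran from -0.48 to -0.22 and that of the YAP/TEAD genes from 0.07 to 0.34, so the lists moved apart in all 10 lines. DESeq2 counted 14 calls, against 2517 genes higher and 2268 lower of 13364. Adding the line to the model as a replicate block gave 23, 8 higher and 15 lower, against 50.4% of all genes, 23.6% higher and 26.8% lower.

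Actb (chr5:142903115-142906754, minus strand) stood at 2380, 2369 and 2025 CPM in WT lines, 2299, 2434, 3272 and 1970 in het lines and 3198, 2164 and 2071 in hom lines when untreated. Actb under AO read 1383, 1530 and 1199 CPM in WT lines, 1283, 1551, 2196 and 1010 in het lines and 2824, 1198 and 1250 in hom lines. It was lower in all 10 lines, least in E1.4 and E2.6, and the values of the groups overlap through those lines. The log2 fold change of Actb was -0.65 ± 0.15 (SE; adjusted p = 0.00139), a fold of 0.639. Actg1 spanned 3172 to 4813 CPM (median 3497) untreated and 1697 to 4108 CPM (median 2108) under AO, a log2 fold change of -0.56 ± 0.15 (SE; adjusted p = 0.00453), and was lower in 10 of 10 lines.

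Acta2 (chr19:34241090-34255590, minus strand) is the actin of contractile fibroblasts. It stood at 1388, 1665 and 970.5 CPM in WT lines, 1086, 1527, 2091 and 1174 in het lines and 2596, 886 and 1343 in hom lines when untreated. Acta2 under AO read 981, 1240 and 692.5 CPM in WT lines, 718, 1212, 1795 and 807 in het lines and 2085, 644 and 1010 in hom lines. Every line was lower, by log2 ratios of -0.60 to -0.22, while the lines themselves spread more than that. The log2 fold change was -0.40 ± 0.23 (SE; adjusted p = 0.19) and did not pass; with the replicate block it was -0.43 ± 0.07 (SE; adjusted p = 2.1e-05). Actg2 behaved likewise at a lower level, spanning 10.9 to 104 CPM (median 28.2) untreated and 7.39 to 90.65 CPM (median 22.4) under AO, with -0.33 ± 0.46 in the first fit and -0.34 ± 0.09 (SE; adjusted p = 0.00287) with the block.

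Of the proteins that coat the thin filament, calponin 2 and tropomyosin 1 fell, and transgelin did not pass. Cnn2 spanned 394.5 to 674.5 CPM (median 455.5) untreated and 253.5 to 509 CPM (median 309) under AO, a log2 fold change of -0.50 ± 0.13 (SE; adjusted p = 0.0037). Tpm1 spanned 1429 to 2325 CPM (median 1753) untreated and 1038 to 1948 CPM (median 1345) under AO, -0.33 ± 0.11 (SE; adjusted p = 0.0248), a call lost without line E2.2 or E2.7 (adjusted p = 0.0546 to 0.0619). Both genes were lower in 10 of 10 lines. Tagln (chr9:45929619-45936058, minus strand) stood at 1128, 1014 and 795 CPM in WT lines, 907, 1291, 1632 and 989.9 in het lines and 2021, 840.5 and 979 in hom lines when untreated. Tagln under AO read 913, 939.9 and 663 CPM in WT lines, 668, 1078, 1643 and 841 in het lines and 2011, 699.5 and 905 in hom lines. The groups overlap broadly, and the log2 fold change was -0.17 ± 0.19 (SE; adjusted p = 0.559). Its block value, -0.19 ± 0.09 (SE; adjusted p = 0.0717), did not pass either.

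Cnn1, the smooth muscle calponin, was low and did not pass in the first fit. Cnn1 (chr9:22099216-22109630, plus strand) stood at 40.2, 22.1 and 25.4 CPM in WT lines, 41.05, 33.8, 44.8 and 25.1 in het lines and 52.7, 22.8 and 16.9 in hom lines when untreated. Cnn1 under AO read 41.6, 20.45 and 18.4 CPM in WT lines, 34.4, 22.9, 43.5 and 19.5 in het lines and 38.85, 13.7 and 12.2 in hom lines. Values were lower in 9 of 10 lines, E1.5 excepted, with -0.31 ± 0.26 (SE; adjusted p = 0.4) and, with the block, -0.32 ± 0.07 (SE; adjusted p = 0.00107). The tropomyosins Tpm2 and Tpm4 stabilise actin filaments. Tpm2 (chr4:43514711-43523765, minus strand) stood at 395, 308 and 274 CPM in WT lines, 324, 296, 421 and 351 in het lines and 406, 301.5 and 314 in hom lines when untreated. Tpm2 under AO read 279.5, 258.5 and 225 CPM in WT lines, 243, 240, 357.5 and 282 in het lines and 578.5, 216 and 252 in hom lines. Line E1.4 was higher and the other 9 lines were lower, and the log2 fold change was -0.21 ± 0.13 (SE; adjusted p = 0.246). Tpm4 (chr8:72134975-72153142, plus strand) was among the steadiest members. It stood at 1350, 1385 and 1180 CPM in WT lines, 1298, 1272, 1415 and 1203 in het lines and 1548, 1207 and 1293 in hom lines when untreated. Tpm4 under AO read 1322, 1275 and 1037 CPM in WT lines, 1213, 1195, 1390 and 1161 in het lines and 1192, 1143 and 1327 in hom lines. Its log2 fold change was -0.11 ± 0.07 (SE; adjusted p = 0.23), and neither Tpm2 nor Tpm4 passed with the block. Tagln2, the second transgelin, read 502 to 855 CPM (median 633) under AO against 603 to 1025 CPM (median 677), -0.14 ± 0.10 (SE; adjusted p = 0.312).

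Of the myosin and leiomodin genes Myl9, Lmod1 and Myh9 fell under AO. Myl9, the regulatory light chain, spanned 58.8 to 210 CPM (median 106) untreated and 29.85 to 169 CPM (median 57.9) under AO, -0.71 ± 0.26 (SE; adjusted p = 0.0348). Lmod1 spanned 3.39 to 56.9 CPM (median 7.73) untreated and 0.263 to 33.6 CPM (median 1.99) under AO, -1.65 ± 0.63 (SE; adjusted p = 0.0449). Both were lower in 10 of 10 lines, with E2.6 the highest line of Lmod1 before and after. Myh9, the heavy chain of non-muscle myosin, spanned 943 to 1538 CPM (median 1171) untreated and 367 to 1540 CPM (median 892) under AO, -0.39 ± 0.15 (SE; adjusted p = 0.0456). Each of these 3 calls was lost in 7 of the 10 fits that left out 1 line. The lines were E1.4, E1.5, E2.1, E2.2, E2.7, E2.8 and E2.9 for Lmod1 (adjusted p = 0.0669 to 0.108), E1.3, E1.4, E1.5, E2.1, E2.5, E2.7 and E2.8 for Myh9 (0.0571 to 0.0946), and E1.3, E1.5, E2.1, E2.2, E2.7, E2.8 and E2.9 for Myl9 (0.0605 to 0.0851). All 3 passed with the replicate block. Myh11 read 0 to 14.9 CPM (median 0.456) and Des 0.577 to 38.35 CPM (median 1.5) under AO, and neither passed, with -0.23 ± 1.14 and -0.19 ± 0.80.

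The adhesion and cross-linking genes were led by vinculin, which links integrin adhesions to actin. Vcl (chr14:20929398-21033676, plus strand) stood at 613, 559.6 and 508 CPM in WT lines, 528, 627, 785 and 513 in het lines and 379, 481 and 479.9 in hom lines when untreated. Vcl under AO read 358, 368 and 320.5 CPM in WT lines, 315, 447, 599.5 and 326 in het lines and 200.2, 283 and 304.5 in hom lines. It was lower in 10 of 10 lines, with overlap through E2.6, which was high in both, and E1.4, which was low in both. The log2 fold change was -0.66 ± 0.12 (SE; adjusted p = 8.25e-05), a fold of 0.632. Filamin A, the product of Flna, cross-links actin filaments. Flna (chrX:74223461-74249820, minus strand) stood at 2383, 2597 and 1930 CPM in WT lines, 2102, 2464, 2817 and 2112 in het lines and 1658, 2240 and 2267 in hom lines when untreated. Flna under AO read 1702, 1924 and 1409 CPM in WT lines, 1392, 1923, 2418 and 1444 in het lines and 899, 1459 and 1532 in hom lines. Values were lower in every line, -0.51 ± 0.11 (SE; adjusted p = 0.00108), and lowest in E1.4, whose AO library is short of long transcripts. The cross-linker Actn1 and the adhesion protein Zyx did not pass, with -0.13 ± 0.11 and 0.13 ± 0.14. Zyx was the single contractile member with a positive value, higher in 8 of 10 lines, and passed with the block at 0.13 ± 0.05 (SE; adjusted p = 0.0478).

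Srf, the factor that reads the CArG box, did not pass under AO. Srf (chr17:46548329-46556175, minus strand) stood at 67.2, 73.5 and 65.6 CPM in WT lines, 63.8, 65.25, 101 and 68.55 in het lines and 84.3, 59.85 and 72.7 in hom lines when untreated. Srf under AO read 61, 74.5 and 62.6 CPM in WT lines, 54.3, 66.5, 93.2 and 69.5 in het lines and 72, 59.9 and 71.1 in hom lines. It was lower in 6 and higher in 4 lines, with -0.08 ± 0.10 (SE; adjusted p = 0.612), a 95% interval of -0.28 to 0.13. Of the 5 contractile genes with a CArG box in the window, Actg1, Cnn2, Myl9 and Vcl fell and Srf did not pass. Of the 12 with a window and no match to the CArG pattern in it, 4 fell: Flna, Lmod1, Myh9 and Tpm1. No test of that difference was made.

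**Figure D2:**
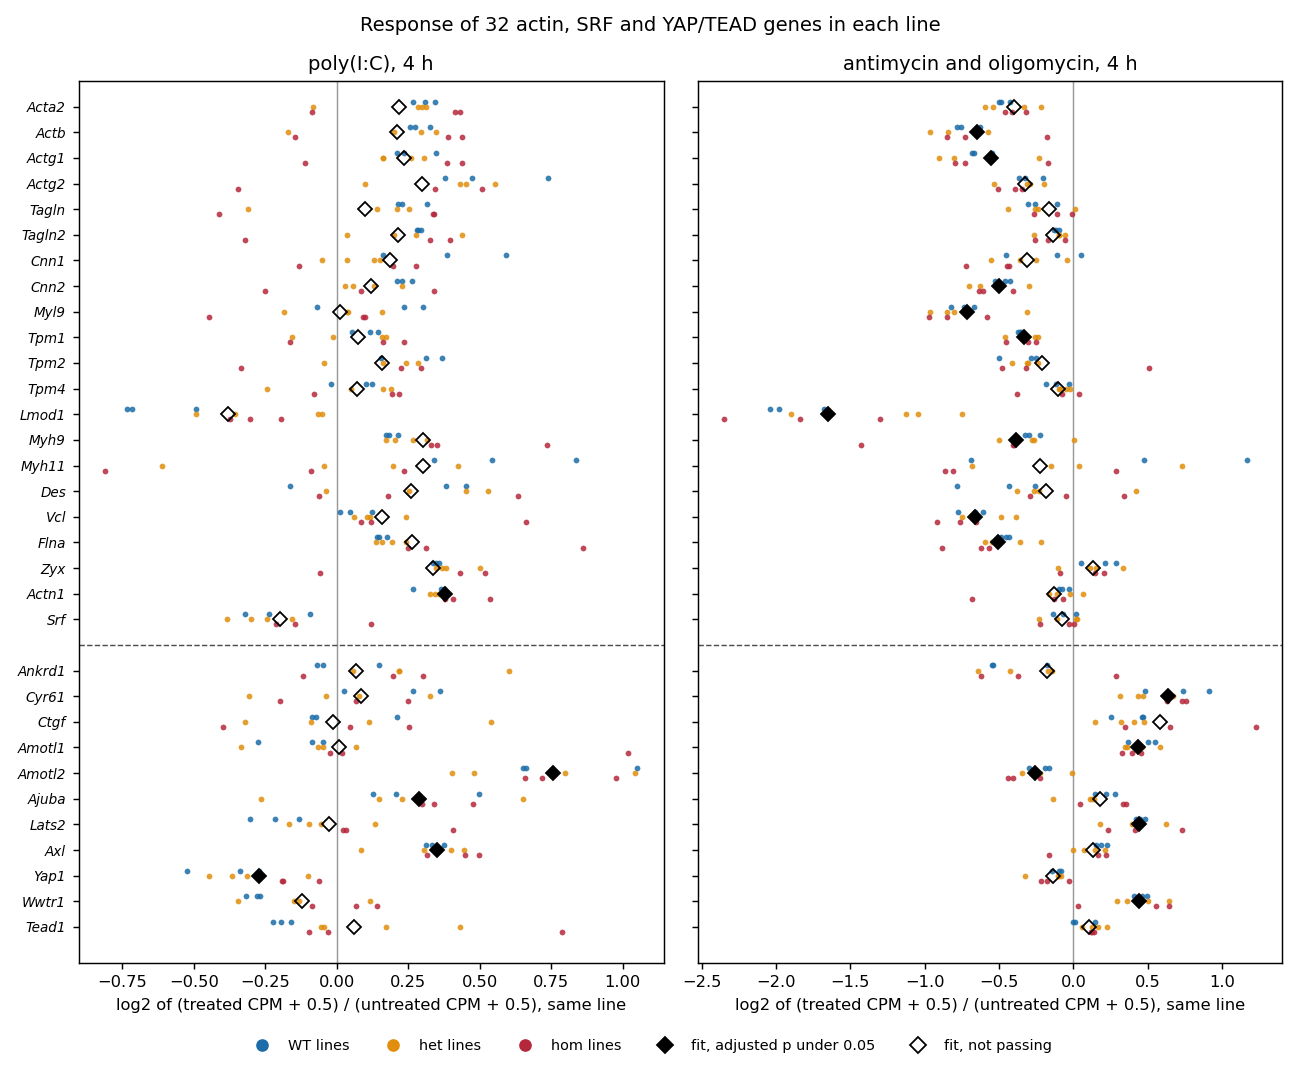
Log2 ratio of treated to untreated CPM (pseudocount 0.5) of each gene in each of the 10 lines (dots, coloured by genotype), for poly(I:C) and for AO; diamonds give the fitted log2 fold change, filled where the adjusted p is under 0.05. Under AO nearly all dots of the contractile genes (above the dashed line) lie left of 0, while Cyr61, Ctgf, Amotl1, Lats2 and Wwtr1 lie right of 0 in all 10 lines.

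Of the matricellular targets of YAP, Cyr61 rose under AO, and Ctgf passed with the replicate block alone. Cyr61 (chr3:145646976-145649981, minus strand) stood at 352, 383 and 396 CPM in WT lines, 364, 413.5, 575 and 506 in het lines and 548, 454 and 455 in hom lines when untreated. Cyr61 under AO read 589, 722 and 554 CPM in WT lines, 453, 657, 779 and 702 in het lines and 926, 702 and 755 in hom lines. It was higher in 10 of 10 lines, and 8 of the 10 AO values lay above every untreated value, those of E2.7 and E1.3 excepted. The log2 fold change was 0.64 ± 0.10 (SE; adjusted p = 1.59e-05), a fold of 1.55. Ctgf was also higher in 10 of 10 lines but did not pass. Ctgf under AO read 1115, 882 and 401.5 CPM in WT lines, 847, 985, 1212 and 548 in het lines and 3141, 486 and 814 in hom lines. Line E1.4 moved most, from 1341 to 3141 CPM. In that line the difference of long from short transcripts was -0.68 on the log2 scale untreated and -1.17 under AO. The part of this in the E1.4 rises of Ctgf, Ankrd1 and Tpm2 was not tested. The log2 fold change of Ctgf was 0.59 ± 0.31 (SE; adjusted p = 0.158). The block value of Ctgf was 0.50 ± 0.10 (SE; adjusted p = 0.000289).

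Ankrd1 fell with the block and did not pass without it. Ankrd1 under AO read 90.3, 70.8 and 40.55 CPM in WT lines, 92.4, 199, 95.2 and 15.6 in het lines and 436, 31.8 and 38.4 in hom lines. Values were lower in 9 lines and higher in E1.4, with -0.18 ± 0.54 (SE; adjusted p = 0.845), and -0.29 ± 0.10 (SE; adjusted p = 0.0166) with the block.

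Among members with products that restrain YAP, 2 rose and 1 fell. Lats2 rose, and spanned 76.5 to 147 CPM (median 96.5) untreated and 101 to 166 CPM (median 137) under AO, 0.44 ± 0.14 (SE; adjusted p = 0.0148). The angiomotin-like genes bind YAP and hold it in the cytoplasm: Amotl1 rose, and spanned 75.3 to 191 CPM (median 169) untreated and 98.9 to 247 CPM (median 220.4) under AO, 0.43 ± 0.14 (SE; adjusted p = 0.0162). Both were higher in 10 of 10 lines; the call of Lats2 was lost without E2.9 (adjusted p = 0.0718) and that of Amotl1 without E1.5 or E2.7 (0.0562 to 0.0577). Amotl2 fell slightly. Amotl2 (chr9:102716672-102733418, plus strand) stood at 172, 203.5 and 198.5 CPM in WT lines, 190.5, 257, 273 and 244 in het lines and 282, 222 and 218 in hom lines when untreated. Amotl2 under AO read 154, 178 and 162 CPM in WT lines, 159, 202, 271.5 and 209 in het lines and 207, 167 and 187 in hom lines. It was lower in 10 of 10 lines, -0.26 ± 0.10 (SE; adjusted p = 0.0412). That call was lost without E1.5, E2.1, E2.2, E2.5, E2.7 or E2.8 (adjusted p = 0.0645 to 0.0927) and with RLE factors or no filter on low counts. The LATS-binding protein Ajuba and Axl did not pass, with 0.18 ± 0.08 and 0.13 ± 0.12, and each passed with the block.

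Of the coactivator genes Wwtr1 rose, and Yap1 did not pass without the block. Wwtr1 (chr3:57455649-57575910, minus strand), the gene of TAZ, stood at 179, 187 and 203 CPM in WT lines, 192, 196.5, 167 and 177 in het lines and 207, 179 and 179 in hom lines when untreated. Wwtr1 under AO read 252, 249 and 281 CPM in WT lines, 272, 252, 205 and 276.5 in het lines and 211, 264.5 and 280.2 in hom lines. It was higher in 10 of 10 lines, 0.44 ± 0.07 (SE; adjusted p = 2.6e-05), a fold of 1.36, least in E1.4. Yap1 (chr9:7931999-8004596, minus strand) stood at 207, 206.5 and 202 CPM in WT lines, 191, 219, 246 and 195 in het lines and 182.5, 191 and 198 in hom lines when untreated. Yap1 under AO read 193, 187 and 190.5 CPM in WT lines, 177, 205, 196 and 184 in het lines and 157, 169 and 193 in hom lines. Values were lower in 10 of 10 lines by small amounts, -0.13 ± 0.07 (SE; adjusted p = 0.131), and -0.13 ± 0.05 (SE; adjusted p = 0.0247) with the block. Tead1, the DNA-binding partner, read 271 to 564 CPM (median 406) against 249 to 541 CPM (median 370.5), 0.11 ± 0.14 (SE; adjusted p = 0.62).

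The AO calls fell from 14 to 8 without WT line E2.7 and to 9 without WT line E1.5. They numbered 11 without E2.9, the line highest in macrophage markers. The share of all genes with 1 line left out is not given here, so these drops are not shown to be particular to the members. Without lines E1.4 and E2.6 there were 16 calls, 4 higher and 12 lower, against 44% of all genes, with Acta2 and Tpm2 added. With the replicate block and without those lines 28 members passed, 8 higher and 20 lower, against 58.8% of all genes. With library totals in place of TMM factors the median of all genes moved to -0.08 and 16 members passed, 4 higher and 12 lower. Of all 13364 genes 1775 were then called higher and 2800 lower. Fibroblast markers were lower too: 4 of 10 fell under AO (Col1a1, Col1a2, Col3a1 and Pdgfrb) and 0 rose, with a median of -0.33. Of the other marker lists Synpo2, 1 of 6 smooth muscle markers tested, fell, Kdr, 1 of 2 endothelial markers tested, rose, and 0 of 3 pericyte and 0 of 9 macrophage markers passed. The part of these markers in the fall of contractile genes was not tested.

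Under poly(I:C) few members passed in the first fit, which does not pair the libraries of a line. Of the 32 members 4 rose and 1 fell in it, against 21.7% of all genes called, 9.91% higher and 11.8% lower. In that fit 5 of 32 is below the background. The calls were Amotl2, Axl, Ajuba and Actn1, which rose, and Yap1, which fell. The median log2 fold change was 0.21 for the contractile genes, 0.06 for the YAP/TEAD genes and -0.00 for all genes. Amotl2, Actn1, Axl, Flna, Vcl and Myh9 were higher and Yap1 and Lmod1 lower in all 10 lines. The replicate block, which pairs them, gave 17 calls of 32, 14 higher and 3 lower. That total is above its background, 39.4% of all genes, 19.8% higher and 19.6% lower. Without lines E1.4 and E2.6 there were 12 calls, 10 higher and 2 lower, against 38.6% of all genes, and with the block as well 27, 22 higher and 5 lower, against 54.5%. Without E2.9, the line highest in macrophage markers, 4 members passed, with no share of all genes to set beside them.

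Amotl2 read 357, 320.2 and 315 CPM in WT lines, 393.5, 339.5, 381 and 425 in het lines and 555, 365 and 345 in hom lines under poly(I:C). Every line was higher, and all 10 values lay above all 10 untreated ones. This was the single member without overlap between the groups. The share of all genes without such overlap was not counted, so the number is not set against a background. The log2 fold change was 0.76 ± 0.10 (SE; adjusted p = 6.8e-06), a fold of 1.69. Ajuba spanned 81.3 to 99.6 CPM (median 87.9) untreated and 82.9 to 130.1 CPM (median 109) under poly(I:C), 0.29 ± 0.08 (SE; adjusted p = 0.0135), and Axl spanned 476 to 981 CPM (median 635) untreated and 672 to 1041 CPM (median 828) under poly(I:C), 0.35 ± 0.12 (SE; adjusted p = 0.0413). Ajuba was higher in 9 of 10 lines, and its call was lost without E1.5 or E2.2 (adjusted p = 0.0572 to 0.0754). The call of Axl was lost without E1.5, E2.1, E2.2, E2.5, E2.7, E2.8 or E2.9 (0.0632 to 0.108). The count of calls was 3 without E1.5 and 3 without E2.2, likewise with no share of all genes to set beside them.

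Yap1 itself fell. Yap1 read 144, 171 and 159 CPM in WT lines, 139.8, 204, 198 and 151 in het lines and 175, 167.5 and 173 in hom lines under poly(I:C). It was lower in 10 of 10 lines, least in E1.4, with -0.27 ± 0.07 (SE; adjusted p = 0.00487), a fold of 0.828. Wwtr1 read 143, 154.5 and 169 CPM in WT lines, 151, 179, 181 and 159 in het lines and 228, 169 and 188 in hom lines under poly(I:C). It was higher in E2.6, E1.4 and E2.9 and lower in the other lines, and the log2 fold change was -0.12 ± 0.07 (SE; adjusted p = 0.243). The matricellular targets did not pass. Cyr61 read 424, 493 and 402.5 CPM in WT lines, 384, 518, 464.5 and 493 in het lines and 478, 476 and 541 in hom lines under poly(I:C). Ctgf read 768, 739.7 and 318 CPM in WT lines, 718, 1030, 734 and 474 in het lines and 1019, 395 and 619 in hom lines under poly(I:C). Ankrd1 read 128, 88.8 and 56.5 CPM in WT lines, 144, 261, 109.6 and 37.8 in het lines and 328, 56.3 and 61.4 in hom lines under poly(I:C). Lines lay on both sides of their untreated values in all 3 genes, with 0.09 ± 0.10 for Cyr61, -0.01 ± 0.31 for Ctgf and 0.07 ± 0.54 for Ankrd1. Lats2, Amotl1 and Tead1 did not pass, at -0.03 ± 0.14, 0.01 ± 0.14 and 0.06 ± 0.14.

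Among the contractile genes Actn1, which cross-links actin at adhesions, rose; it spanned 589 to 881 CPM (median 748) untreated and 708.5 to 1128 CPM (median 980.5) under poly(I:C), 0.38 ± 0.11 (SE; adjusted p = 0.0137), in 10 of 10 lines. The other 20 did not pass, although 19 of the 21 values were positive; Lmod1 and Srf were negative. Actb read 2877, 2972 and 2417 CPM in WT lines, 2645, 3096, 2908 and 2419 in het lines and 2892, 2935 and 2712 in hom lines under poly(I:C). Acta2 read 1763, 2064 and 1168 CPM in WT lines, 1324, 1878, 1974 and 1458 in het lines and 2443, 1195 and 1790 in hom lines under poly(I:C). Both were higher in 8 lines and lower in E1.4 and E2.6. In E1.4 the difference of long from short transcripts was -0.68 on the log2 scale in the untreated library and 0.05 under poly(I:C). The part of this in the lower values of E1.4, here and for other members, was not tested. The log2 fold changes of Actb and Acta2 were 0.21 ± 0.15 (SE; adjusted p = 0.345) and 0.22 ± 0.23 (SE; adjusted p = 0.57). With the block they were 0.24 ± 0.09 (SE; adjusted p = 0.0388) and 0.26 ± 0.07 (SE; adjusted p = 0.00399). Vcl read 618, 609.5 and 525 CPM in WT lines, 569, 742, 818 and 556 in het lines and 599, 510.1 and 521 in hom lines under poly(I:C). Flna read 2625, 2875 and 2183 CPM in WT lines, 2346, 2821, 3096 and 2498 in het lines and 3017, 2662 and 2813 in hom lines under poly(I:C). Both were higher in 10 of 10 lines, most of all in E1.4, whose untreated library is short of long transcripts. Neither passed in the first fit, with 0.16 ± 0.12 and 0.27 ± 0.11, and both did with the block.

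The remaining thin filament genes did not pass under poly(I:C) in the first fit. Tagln read 1310, 1264 and 931.5 CPM in WT lines, 1051, 1424, 1316 and 1181 in het lines and 1520, 1064 and 1237 in hom lines under poly(I:C). Cnn1 read 60.85, 24.7 and 33.4 CPM in WT lines, 44.9, 32.7, 45.9 and 28 in het lines and 48.1, 27.8 and 19.4 in hom lines under poly(I:C). Tagln was higher in all lines but E1.4 and E2.6, at 0.10 ± 0.19, and Cnn1 in 8 of 10, at 0.19 ± 0.26 and, with the block, 0.19 ± 0.07 (SE; adjusted p = 0.0433). Tpm2 read 441, 383 and 354 CPM in WT lines, 362, 351, 408 and 428 in het lines and 322, 369.9 and 367 in hom lines under poly(I:C). Tpm4 read 1472, 1487 and 1163 CPM in WT lines, 1343, 1453, 1194 and 1347 in het lines and 1465, 1403 and 1479 in hom lines under poly(I:C). They gave 0.16 ± 0.13 and 0.07 ± 0.07 and did not pass with the block either. Srf was lower in 9 of 10 lines. Srf read 53.6, 62.25 and 61.5 CPM in WT lines, 57.15, 55.1, 77 and 55.6 in het lines and 72.7, 65 and 65.7 in hom lines under poly(I:C). Its log2 fold change was -0.20 ± 0.10 (SE; adjusted p = 0.17), and -0.19 ± 0.05 (SE; adjusted p = 0.00438) with the block. The block also brought in Actg1, Actg2, Myh9, Tagln2 and Zyx as higher and Lmod1 as lower. Cnn2, Myl9, Tpm1, Myh11 and Des passed in neither fit.

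The split between directions under poly(I:C) depended on the scaling. With library totals in place of TMM factors the median of all genes moved to -0.11, and 4 members passed, 1 higher (Amotl2) and 3 lower (Srf, Wwtr1 and Yap1), where TMM gave 4 and 1. Of all 13364 genes 722 were then called higher and 2653 lower. With library totals 15 of the 21 contractile genes had a positive value. Their median was 0.11 against -0.11 for all genes. Summed fibroblast markers were higher under poly(I:C) than untreated in all 10 lines, and Fn1 was the 1 of 10 that passed. Smtn, a smooth muscle marker, and Sox9, a chondrocyte marker, rose as well, and the part of these markers was not tested.

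**Figure D3:**
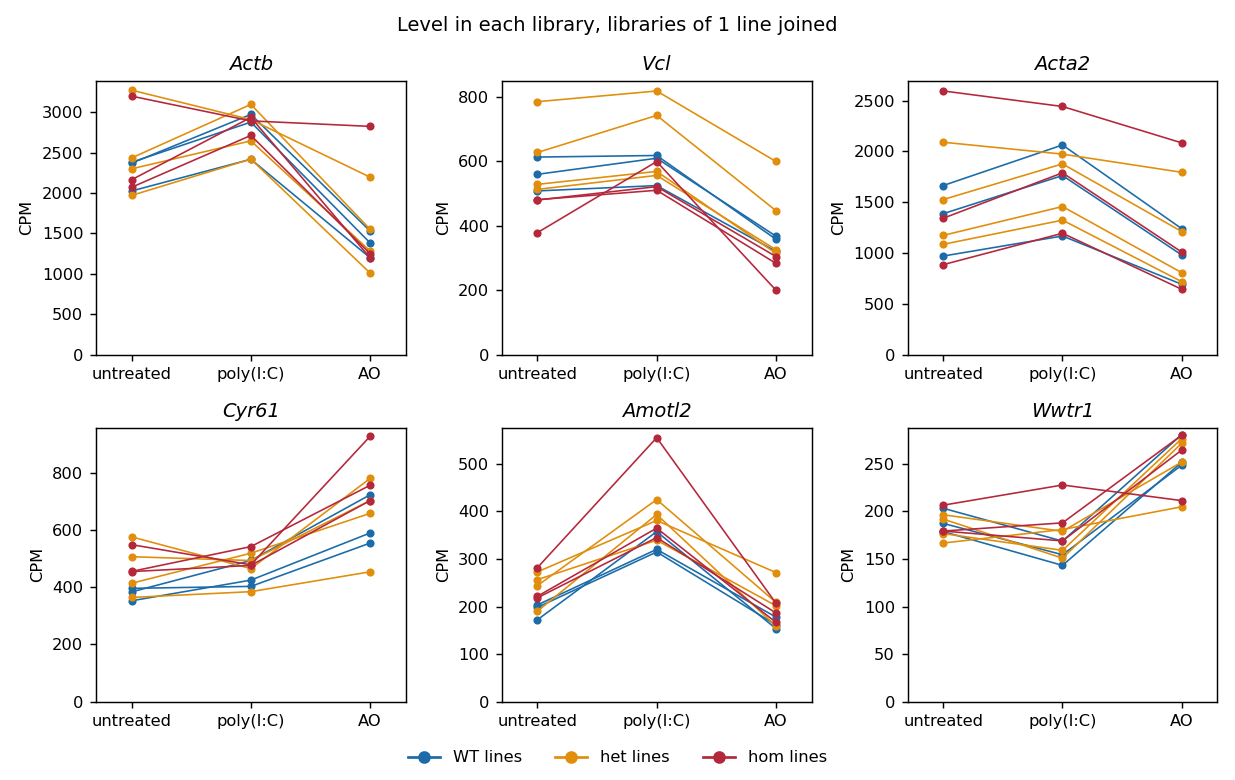
CPM of 6 members in untreated, poly(I:C) and AO libraries, points joined for each of the 10 lines and coloured by genotype. Actb and Vcl drop under AO in every line, Cyr61 and Wwtr1 rise, and Amotl2 peaks under poly(I:C) with no overlap with the untreated values.

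Both treatments were set against the same untreated libraries, so the difference between them was tested directly. AO against poly(I:C) gave 18 calls of 32, 4 higher and 14 lower, against 41.4% of all genes, 21% higher and 20.4% lower. Of the contractile genes 13 of 21 were lower under AO and 0 higher, with a median of -0.53 against -0.03 for all genes. Fibroblast markers were lower too, 6 of 10 (Col1a1, Col1a2, Col3a1, Fn1, Pdgfrb and Vim) with a median of -0.72, as were 3 of 6 smooth muscle markers tested (median -1.2) and 2 of 3 chondrocyte markers, Col2a1 and Sox9 (median -0.87). The endothelial marker Kdr was higher, and the part of these markers was not tested. Of the YAP/TEAD genes 4 of 11 were higher, 1 was lower and the median was 0.14. Amotl2 gave the smallest p, at -1.02 ± 0.10 (SE; adjusted p = 1.43e-08), a fold of 0.494. Among the contractile genes the smallest p was that of Vcl, at -0.82 ± 0.12 (SE; adjusted p = 3.88e-06). Next among them were Flna with -0.77 ± 0.11 (SE; adjusted p = 6.73e-06), Actb with -0.86 ± 0.15 (SE; adjusted p = 5.3e-05) and Actg1 with -0.79 ± 0.15 (SE; adjusted p = 0.000121). Wwtr1 was higher under AO by 0.57 ± 0.07 (SE; adjusted p = 6.52e-07) and Cyr61 by 0.55 ± 0.10 (SE; adjusted p = 6.42e-05). Lats2 and Amotl1 were higher by 0.47 ± 0.14 and 0.43 ± 0.14. The remaining lower genes were Cnn2, Actn1, Myh9, Tpm1, Tagln2, Myl9, Tpm2, Tpm4 and Acta2, from -0.73 to -0.18. Srf did not pass, at 0.12 ± 0.10 (SE; adjusted p = 0.351), nor did Yap1, at 0.14 ± 0.07 (SE; adjusted p = 0.106).

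Without lines E1.4 and E2.6 there were 22 calls, 5 higher and 17 lower, against 53.3% of all genes, and with the block as well 29, against 65.7%. Some calls were lost when 1 line was left out, and 13 members passed without E2.9. The share of all genes is not given for these fits. Tpm2 was lost without E1.3, E1.5, E2.1, E2.2, E2.7, E2.8 or E2.9 (adjusted p = 0.0512 to 0.105), Myl9 without E1.5, E2.1, E2.2, E2.7, E2.8 or E2.9 (0.0518 to 0.0879), and Acta2 without E1.5, E2.1, E2.5, E2.8 or E2.9 (0.0569 to 0.0841). Tpm4 was lost without E2.1, E2.2, E2.5 or E2.8 (0.0533 to 0.0683), Amotl1 without E1.5, E2.2 or E2.9 (0.052 to 0.0684) and Lats2 without E2.9 (0.0547). With the replicate block 28 of 32 members passed, 6 higher and 22 lower, against 56.7% of all genes, 26.1% higher and 30.6% lower. Ctgf and Yap1 were then higher under AO, and Actg2, Ankrd1, Axl, Cnn1, Des, Lmod1, Tagln and Zyx lower.

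Other genes of these pathways were taken from lists that hold no member, and their counts are to be read against the 33.7% of all genes called under AO and 21.7% under poly(I:C). The other arm of SRF is that of the ternary complex factors, whose genes and immediate early targets make up a list of 12. Of these 7 rose and 1 fell under poly(I:C), median 1.0, and 5 rose and 1 fell under AO, median 0.46. Egr1 rose by 2.23 ± 0.21 (SE; adjusted p = 9.12e-08) under poly(I:C) and by 1.21 ± 0.20 (SE; adjusted p = 4.45e-05) under AO. Fos rose by 1.70 ± 0.23 (SE; adjusted p = 1.55e-05) under poly(I:C), and Ier2 by 0.96 ± 0.18 (SE; adjusted p = 0.000203) under AO. The gene that fell was Elk1 under poly(I:C) and Elk3 under AO, both of them genes of ternary complex factors.

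Of 16 Hippo kinases, adaptors and TEADs 4 rose and 2 fell under AO, among them the kinase Lats1 at 0.60 ± 0.12 (SE; adjusted p = 0.000303) and Tead3 at -0.60 ± 0.10 (SE; adjusted p = 4.57e-05). Under poly(I:C) 2 rose and 2 fell, with the scaffold Sav1 at -0.29 ± 0.07 (SE; adjusted p = 0.00306). Of 16 further genes of published YAP signatures 3 rose and 2 fell under AO, and 3 rose and 0 fell under poly(I:C). Gadd45a, a stress gene, rose by 2.12 ± 0.21 (SE; adjusted p = 4.39e-08) under AO and Nuak2, a kinase that acts on myosin, by 0.63 ± 0.12 (SE; adjusted p = 0.000775) under poly(I:C). These shares of the Hippo and signature lists lie near those of all genes. The median of the signature list under AO was -0.04, against -0.02 for all genes.

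No member passed between genotypes in any comparison run. Across hom or het against WT in each of 3 treatments and the 4 differences in response, 0 of 32 members passed in edgeR. Of all genes 0.015% passed for hom against WT in untreated cells and 0.254% in poly(I:C) cells. The share was 0% in AO cells, in the het comparisons and in the differences in response. At an unadjusted p under 0.05 edgeR counted 1 member for hom against WT in untreated cells, 1 in poly(I:C) cells and 0 in AO cells, and in the same order 0, 0 and 2 for het against WT, and 0 in each of the 4 differences. DESeq2 passed 0 members as well, and at its unadjusted p counted 1, 1 and 2 for hom, 2, 0 and 3 for het, and 0 in each difference.

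The intervals give the range of differences that the first fit leaves possible. That fit takes libraries of the same line as independent, though their deviations correlated by 0.342 to 0.765. The intervals may therefore be too narrow. For hom against WT untreated the 95% interval lay within a 2-fold change for 22 of 32 members, and for het against WT untreated for 24. The wide ones were Actg2, Ankrd1, Cnn1, Ctgf, Des, Lmod1, Myh11 and Myl9 in both, with Acta2 and Tagln added for hom. Untreated Acta2 stood at 1341 ± 349.6 CPM (SD, n = 3) in WT, 1469 ± 456 CPM (SD, n = 4) in het and 1608 ± 885 CPM (SD, n = 3) in hom, with log2 fold changes of 0.26 ± 0.41 (95% interval -0.60 to 1.12) for hom and 0.13 ± 0.39 (-0.68 to 0.94) for het. Untreated Cyr61 stood at 377 ± 22.4 CPM (SD, n = 3) in WT, 465 ± 94.3 CPM (SD, n = 4) in het and 486 ± 54.05 CPM (SD, n = 3) in hom, with 0.37 ± 0.17 for hom (95% interval 0.00 to 0.73), the smallest p of that comparison, 0.0475 before adjustment and 0.976 after. Untreated Yap1 stood at 205 ± 2.82 CPM (SD, n = 3) in WT, 213 ± 25.4 CPM (SD, n = 4) in het and 190.3 ± 7.57 CPM (SD, n = 3) in hom, with -0.11 ± 0.12 for hom (95% interval -0.36 to 0.14). Untreated Actb stood at 2258 ± 202 CPM (SD, n = 3) in WT, 2494 ± 554 CPM (SD, n = 4) in het and 2477 ± 626 CPM (SD, n = 3) in hom, with 0.13 ± 0.27 for hom (95% interval -0.42 to 0.69). Hom and WT lines overlap in Acta2 and Actb; the 3 hom lines were above the 3 WT lines in Cyr61 and below them in Yap1, and neither passed after adjustment over all genes. Without lines E1.4 and E2.6, 0 members passed as well.

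Within single genotypes fewer members passed. Amotl2 was the 1 member that passed under poly(I:C) in WT, in het and in hom, against 3.2%, 4.67% and 1.28% of all genes. Under AO, Cyr61 and Wwtr1 rose in all 3 genotypes, against 7.66%, 11.1% and 13.1% of all genes, while Vcl fell in WT and hom, Flna in hom and Actb in het. With the replicate block 8, 7 and 4 members passed under poly(I:C) in WT, het and hom, against 15.7%, 17.8% and 9.79% of all genes. Under AO the block gave 13, 13 and 17, against 22.9%, 27.5% and 29.7%, and Vcl, Actb, Flna, Actg1, Cnn2, Myl9, Tpm1, Lmod1 and Acta2 then fell in each genotype. A gene that passed in 1 genotype alone is not shown to differ, since the 4 differences in response held 0 calls.

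**Figure D4:**
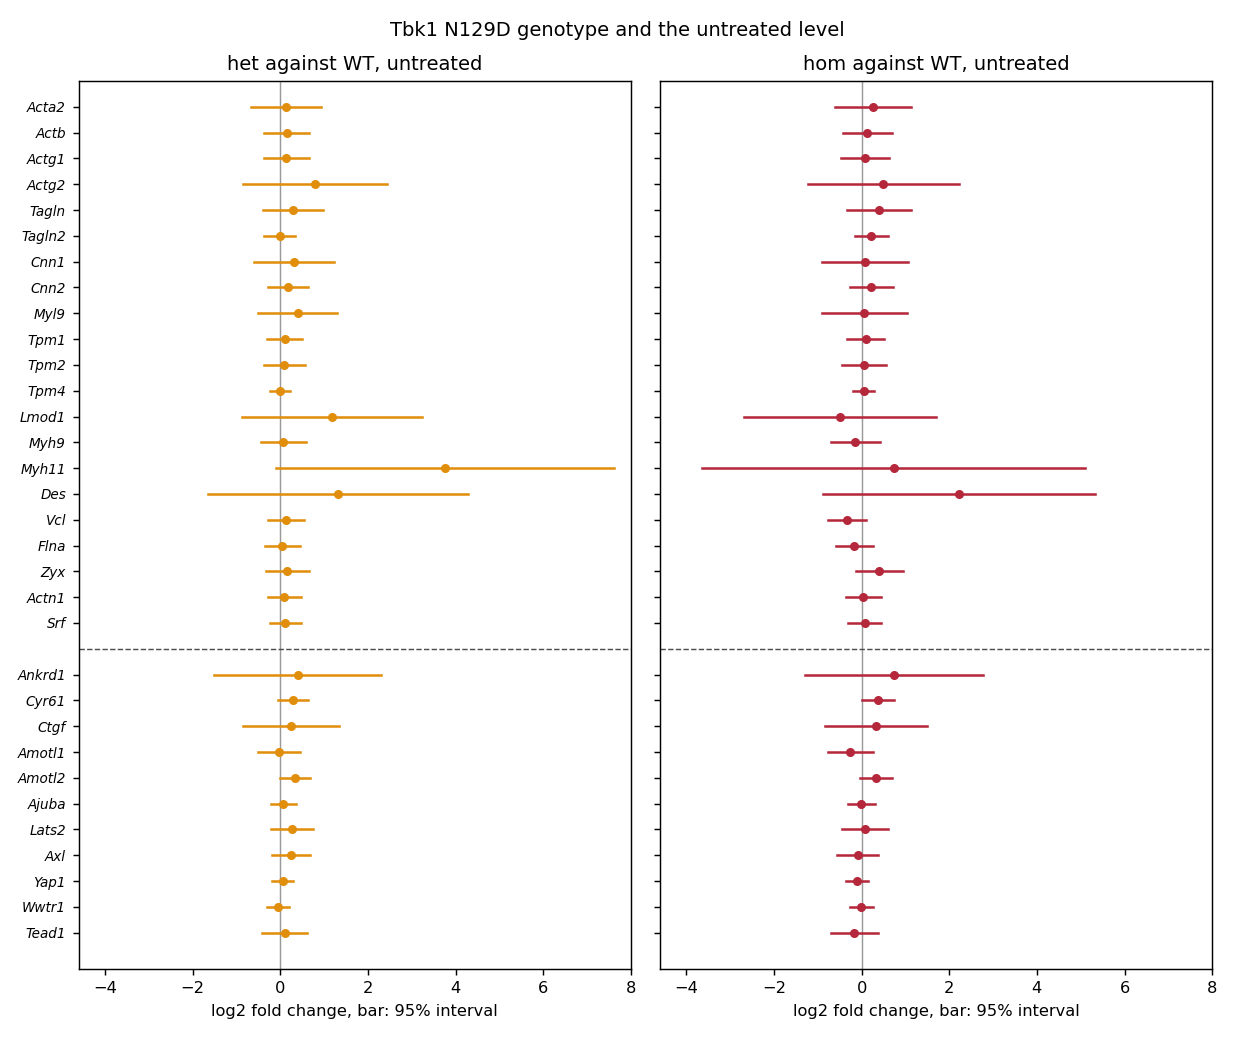
Log2 fold change of each gene in untreated het against WT and untreated hom against WT lines, with bars for the 95% interval (t distribution, residual degrees of freedom of the fit). No gene passed after adjustment; the bars of Myh11, Des, Lmod1, Actg2 and Ankrd1 are the widest.

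In WT line E1.5 nearly all members were lower at high than at low density. Of the 30 members tested 25 fell and 2 rose, against 16.8% of all 12491 genes, 8.61% higher and 8.24% lower. Of the contractile genes 17 of 19 fell, with a median log2 fold change of -0.44, and of the YAP/TEAD genes 8 of 11, with a median of -0.34; the median of all genes was 0.01. Des and Myh11 were too low to be tested. The design has 1 library per density and treatment in 1 line, so the error is the departure from a shared density term and says nothing of other lines. The high density libraries are also the deepest. With all libraries thinned to 5213075 counts 24 members fell and 2 rose, against 879 lower and 897 higher of all 12231 genes. Without the untreated libraries 19 members passed, against 616 genes higher and 436 lower of 12376. Without the poly(I:C) libraries 23 passed, against 614 higher and 528 lower of 12186. Without the AO libraries 23 passed, against 795 higher and 732 lower of 12543. The full fit called 1075 higher and 1029 lower of 12491.

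In the next sentences the 3 values at each density are those of untreated, poly(I:C) and AO cells, in CPM scaled over the 9 libraries of line E1.5. Tagln read 881, 988.5 and 709 CPM at high density and 1547, 1834 and 1164 CPM at low density, and the libraries with no density label lay between at 1122, 1296 and 904 CPM. Its log2 fold change was -0.81 ± 0.05 (SE; adjusted p = 3.55e-07). Acta2 read 1142, 1310 and 788 CPM at high density and 1785, 2498 and 1294 CPM at low density, -0.76 ± 0.05 (SE; adjusted p = 1.75e-06), and Cnn1 read 36.9, 33.9 and 26.8 CPM at high density and 68.2, 78.7 and 53.6 CPM at low density, -1.02 ± 0.11 (SE; adjusted p = 6.42e-05). These markers of contractile fibroblasts held the largest falls among the contractile genes, with Lmod1 at -0.96 ± 0.21 (SE; adjusted p = 0.0079). Actb read 2070, 2272 and 1180 CPM at high density and 2602, 3955 and 1530 CPM at low density, -0.50 ± 0.08 (SE; adjusted p = 0.000798). Tpm2 read 328.5, 381 and 259 CPM at high density and 458, 546 and 354.5 CPM at low density, -0.48 ± 0.05 (SE; adjusted p = 6.34e-05), and Tpm4 read 1222, 1302 and 1136 CPM at high density and 1640, 1739 and 1529 CPM at low density, -0.42 ± 0.04 (SE; adjusted p = 3.34e-05). Tpm1 did not pass, at 0.02 ± 0.05 (SE; adjusted p = 0.811).

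Flna read 2176, 2183 and 1235 CPM at high density and 2786, 3671 and 2033 CPM at low density, -0.61 ± 0.07 (SE; adjusted p = 0.000142), and Vcl read 594, 621 and 340.3 CPM at high density and 656, 739.6 and 368.5 CPM at low density, -0.17 ± 0.05 (SE; adjusted p = 0.0448). Vcl, which had the smallest adjusted p among the falls under AO, had the smallest called change with density. The calls of Vcl and Zyx were lost with the 6 density libraries alone, with library totals and without any 1 treatment. Lmod1, Ajuba and Lats2 did not pass without the untreated libraries, Myh9 without the AO libraries and Actg2 without the poly(I:C) libraries. Srf read 61.6, 47.05 and 61.4 CPM at high density and 78.1, 60.9 and 60.8 CPM at low density, -0.23 ± 0.08 (SE; adjusted p = 0.0724), with near-equal values in AO cells. In all, 17 of 21 contractile genes were lower at high density in each of the 3 treatments, and for 15 of 21 the unlabelled library lay between in each. These shares were not counted over all genes, so they are not shown to be particular to the contractile genes.

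Of the YAP/TEAD targets Ctgf read 555, 581 and 652 CPM at high density and 1026, 944.5 and 1646 CPM at low density, -0.97 ± 0.09 (SE; adjusted p = 1.77e-05), and Ankrd1 read 89.5, 86.9 and 68.3 CPM at high density and 169.6, 152.5 and 111.5 CPM at low density, -0.82 ± 0.06 (SE; adjusted p = 4e-06). Cyr61 read 335, 366 and 434 CPM at high density and 484, 446 and 831 CPM at low density, -0.59 ± 0.10 (SE; adjusted p = 0.00156). These 3 common reporters of YAP activity all fell. Amotl2 read 179, 319.5 and 142 CPM at high density and 210.5, 344.5 and 198 CPM at low density, -0.27 ± 0.08 (SE; adjusted p = 0.0342), a call lost with library totals and without the untreated or the AO libraries. Axl fell with -0.40 ± 0.05, Ajuba with -0.35 ± 0.07, Lats2 with -0.34 ± 0.07 and Tead1 with -0.32 ± 0.06. Of the coactivator genes Wwtr1 rose, and Yap1 did not pass. Yap1 read 204, 164 and 193 CPM at high density and 194, 144 and 167 CPM at low density, 0.15 ± 0.06 (SE; adjusted p = 0.12), and Wwtr1 read 183, 151 and 283 CPM at high density and 158, 145 and 202 CPM at low density, 0.26 ± 0.08 (SE; adjusted p = 0.0359). Wwtr1, Amotl1 and Yap1 were higher at high density in all 3 treatments. The calls of Wwtr1 and Amotl1 were lost with RLE factors, with DESeq2, with the 6 density libraries alone and without the untreated libraries.

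Other genes of the lists differed with density as well, against 16.8% of all genes. Of the immediate early list 4 of 12 rose and 1 fell, with Egr1 at 0.94 ± 0.15 (SE; adjusted p = 0.00143) and Fos at 1.17 ± 0.21 (SE; adjusted p = 0.00255), opposite in sign to the contractile genes. Of the Hippo list 0 of 16 rose and 3 fell, among them the adaptor Wwc1 at -0.58 ± 0.07 (SE; adjusted p = 0.000113). Of the further YAP signature genes 1 of 16 rose and 4 fell, with Crim1 at -0.75 ± 0.07 (SE; adjusted p = 1.34e-05). Of 9 fibroblast markers tested 5 were higher and 2 lower at high density, and of 3 pericyte markers 2 were higher and 1 lower. The chondrocyte markers Acan and Col2a1, 2 of 3 tested, were lower (median of the 3, -1.0), as was the endothelial marker Kdr, 1 of 2 tested. The part of these markers in the fall of the contractile genes was not tested.

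**Figure D5:**
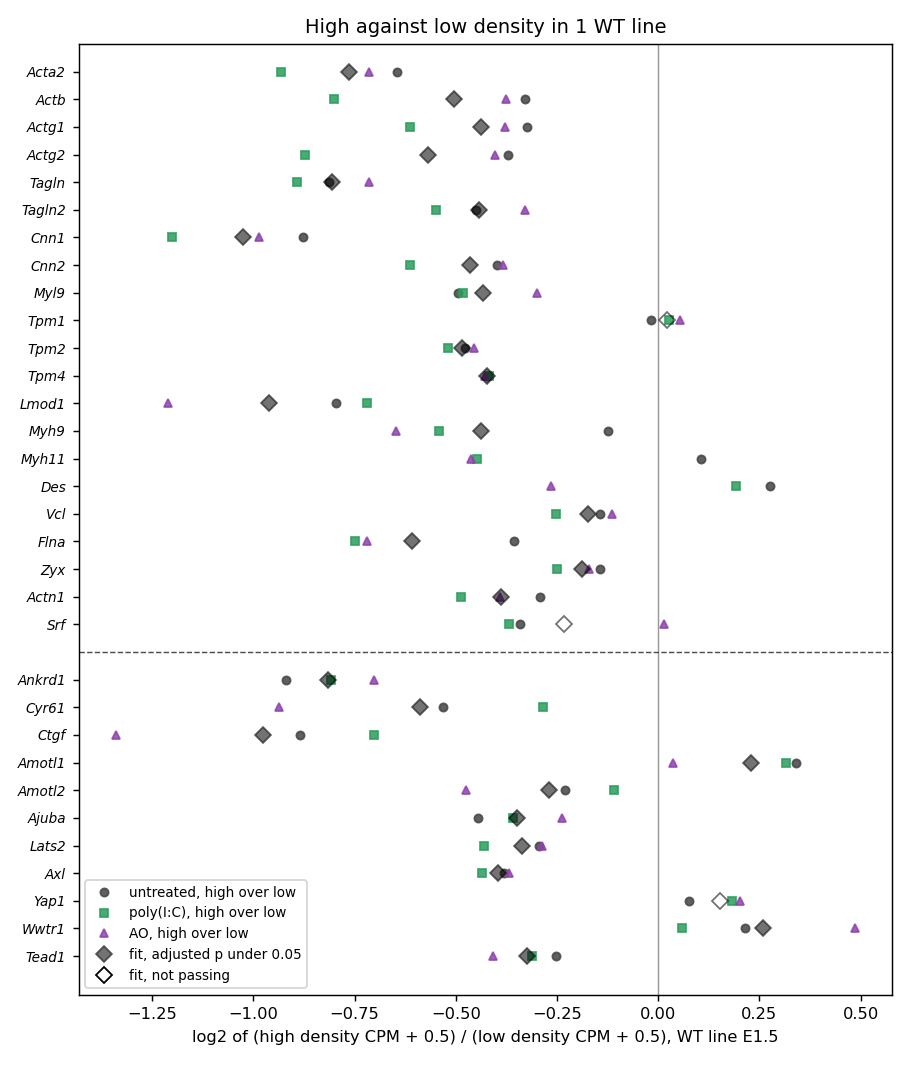
Log2 ratio of high to low density CPM (pseudocount 0.5) in WT line E1.5 for untreated, poly(I:C) and AO cells, 1 marker per treatment; diamonds give the fitted value, filled where the adjusted p is under 0.05. Markers of most contractile genes and of Ankrd1, Ctgf and Cyr61 lie left of 0 in all 3 treatments, and those of Amotl1, Yap1 and Wwtr1 right of 0.

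Across the treatment and density comparisons 29 of the 32 members passed at least once in the fits without the block. Des, Myh11 and Srf did not. With the block Srf passed under poly(I:C) and Des for AO against poly(I:C). The share of all genes that passed at least once was not counted, so 29 of 32 is not set against a background. Set side by side, Cyr61 gave 0.64 ± 0.10 under AO and -0.59 ± 0.10 at high density, and Lats2 gave 0.44 ± 0.14 and -0.34 ± 0.07. Vcl gave -0.66 ± 0.12 and -0.17 ± 0.05, and Wwtr1 gave 0.44 ± 0.07 and 0.26 ± 0.08. These comparisons share the libraries of line E1.5 without a density label, and no test of the difference between them was made.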

How the data were processed

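RNA of 36 libraries was measured by stranded mRNA sequencing from 500 ng of total RNA, per the labels' protocols. The authors deposited expected counts per gene, made with STAR and RSEM on mm10 per the submitters' processing notes; the sources used here give no version, annotation release or strand setting. Expected counts were rounded to whole numbers. Genes were kept by filterByExpr of edgeR 4.0.16 (minimum count 10, minimum total 15), scaled by TMM and tested with the quasi-likelihood F test in R 4.3.3, with Benjamini-Hochberg adjustment over all genes and a threshold of 0.05. One fit held the 30 libraries without a density label in 9 groups; another held the 9 libraries of line E1.5 with treatment and density as terms. The script was tested on simulated data. The line, named in the titles of all its libraries, served as a replicate block in an alternative; deviations of libraries of the same line correlated by 0.342 to 0.765. Other alternatives were RLE factors, no filter, DESeq2 1.42.0, each line left out, and settings added after seeing the data. Intervals use the t distribution with 21 degrees of freedom, which counts libraries of the same line as independent. Shown in full are 15 members by a rule of the smallest adjusted p plus set reporters; the others are given by range. The members and lists were chosen with earlier results of these data known. The results of 1 further gene list are not reported here.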

Additional observations from a re-analysis of the deposited data

Results flagged for a closer look

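Of 96 tests of a single far value in the 4 het lines, over 32 genes and 3 treatments, 9 were positive, in 4 genes. In all 9 het line E2.6 was the highest. The nominal rate of the test is about 1 in 20. The tests reuse the same 4 lines, so they are not independent and the count cannot be set against that rate. Lmod1 stood at 56.9 CPM untreated, 55.0 CPM under poly(I:C) and 33.6 CPM under AO in that line, against highest values of 10.5, 8.13 and 2.45 CPM in the other het lines. Myh11 stood at 16.6, 19.1 and 14.9 CPM, against at most 0.739, 1.16 and 0.769 CPM. Srf stood at 101 CPM untreated, against 63.8 to 68.6 CPM, and at 77.0 CPM under poly(I:C), against 55.1 to 57.2 CPM. Cnn2 stood at 624 CPM untreated, against 431 to 457 CPM.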

How the results depend on the processing

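With the replicate block, which the line names pair, 17 members passed under poly(I:C), 23 under AO and 28 for AO against poly(I:C), against 5, 14 and 18 without it. With that block and without lines E1.4 and E2.6, a setting chosen after seeing the data, 27, 28 and 29 passed, against 54.5%, 58.8% and 65.7% of all genes, and without those lines alone 12 under poly(I:C), against 38.6%. Leaving out 1 line at a time gave 3 to 7 calls under poly(I:C), 8 (without E2.7) to 14 under AO, with 9 without E1.5, and 13 to 20 for their difference. The share of all genes in those fits is not given, so the ranges are not shown to be particular to the members. No member called in the first fit changed sign under any setting run. All 37 treatment calls were kept with the block. Genotype comparisons and differences in response held 0 calls under every setting run. No paired analysis was possible for genotypes, because each line has 1 genotype, nor for density, because it has 1 line. Under AO the call of Myh9 was lost with RLE factors or no filter on low counts (adjusted p = 0.0546 and 0.0628 in edgeR), under poly(I:C) that of Axl with no filter (0.104), and at density that of Zyx with counts thinned to the smallest total (0.08). Depth limits Myh11 and Des most, the lowest members per length.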
